A study of Mus musculus with 6 samples.

Results

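The 42 genes described here encode the enzymes, transporters and kinases that carry glucose carbon through glycolysis, the pentose phosphate pathway and the tricarboxylic acid (TCA) cycle. They were taken from a list, and each was read from its brightest Affymetrix probe set, judged by the mean of the 6 arrays, among those that the platform annotation gives to 1 gene only. Of the 42, 38 had such a probe set, out of 18194 genes read in the same way. Eno1, G6pdx, Gpi1 and Gls2 had none and are not analysed here. So the isomerase that follows hexokinase, the widespread enolase and the enzyme that opens the pentose phosphate pathway have no value.

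RNA came from hepatic stellate cells of C57Bl/6 mice, the liver pericytes that turn into matrix-producing myofibroblasts after injury. Every sample carried the transgenes CMV-rtTA and TRE-GFP-shRNA.p53.1224, with which doxycycline lets a transactivator driven by the broadly active CMV promoter switch on a hairpin RNA against p53 and a green fluorescent protein. The proliferating group (3 arrays) received 1 ug/ml doxycycline, and its label gives p53 knockdown, and the senescent group (3 arrays) is labelled as control with p53 expressed. All were grown in DMEM with 10% serum, 1% glutamine, penicillin and streptomycin. Doxycycline, loss of p53 and proliferation go together in this design and cannot be told apart. The hairpin's target is not analysed here. Whether replicates were separate animals, cultures or only preparations is left unsaid by the labels, so p-values measure the spread between these samples only, which may be technical.

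Glycolysis splits glucose into pyruvate, which is either reduced to lactate and exported or enters the mitochondrion, where pyruvate dehydrogenase feeds it to the TCA cycle. The pentose phosphate pathway branches off after hexokinase and supplies NADPH and the ribose of nucleotides. p53 is known to act on this network, among others through Tigar, a phosphatase that lowers the activator of phosphofructokinase, and activation of stellate cells is known to come with higher glycolysis.

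The 3 genes with the largest changes between senescent and proliferating cells act on isocitrate, lactate transport and pyruvate dehydrogenase. In senescent cells Idh2, the mitochondrial NADP-dependent isocitrate dehydrogenase, was 2.29-fold lower (log2 change -1.20 ± 0.10, SE, n = 3 per group). Slc16a1, a plasma membrane carrier of lactate and pyruvate, was 1.89-fold lower (-0.92 ± 0.09), and Pdk4, a kinase that switches off pyruvate dehydrogenase, was 1.81-fold higher (0.86 ± 0.10). Tigar and Taldo1, transaldolase of the pentose phosphate pathway, rose 1.39-fold and 1.33-fold. Idh1, the cytosolic counterpart of Idh2, and Pcx, pyruvate carboxylase, were 1.39-fold and 1.37-fold lower.

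Genes were compared with limma over all 18194 genes, senescent minus proliferating, and called at an adjusted p (Benjamini-Hochberg) under 0.05. Here the background of a count is the share of all genes called by the same rule. Of the 38 genes, 11 were called, 4 higher and 7 lower, or 28.9%, against a background of 20.0% of all genes (9.49% higher and 10.5% lower). The background level of the arrays was set at 5.57, which 95% of 44 olfactory receptor probe sets do not exceed in their mean. Among genes with a mean above it, tested alone, 12 of 35 were called, 34.3% against 32.2%, so the share of calls was near that of other genes of measurable level. The groups did not overlap for 21 of the 38 (55.3%, against 37.0% of all genes), with 9 higher in senescent cells, against 17.4% of all genes, and 12 lower, against 19.6%. The median change of the 38 was -0.05 log2 units, and that of all genes -0.0018. In the fitted values Idh2 alone changed at least 2-fold, and 3 genes at least 1.5-fold. Of the 27 that were not called, 25 had a 95% interval that stayed within 1.5-fold either way. The counts turned to 7 higher and 6 lower when arrays were centred on genes of middle level.

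Without senescent replicate 1 or senescent replicate 2, 4 of the 38 were called lower. The calls of Slc16a1, Pdk4, Taldo1, Tigar, Idh2, Idh1 and Pcx were kept when any 1 array was left out. The poly-A spike-ins, bacterial RNA added to the samples, were brighter in the senescent group by 0.60 ± 0.17 (log2, SE, exact two-sided permutation p = 0.1, the smallest that 3 arrays against 3 can give). When arrays were scaled to them, the median of all genes moved to -0.60. Such scaling shifts the change of every gene by the same amount, so the side of that median on which a gene lies could not change. Of the 11 called higher or lower, Hk1, Taldo1 and Tigar fell below 0. Every change is therefore given relative to the array's other genes.

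**Figure D1:**
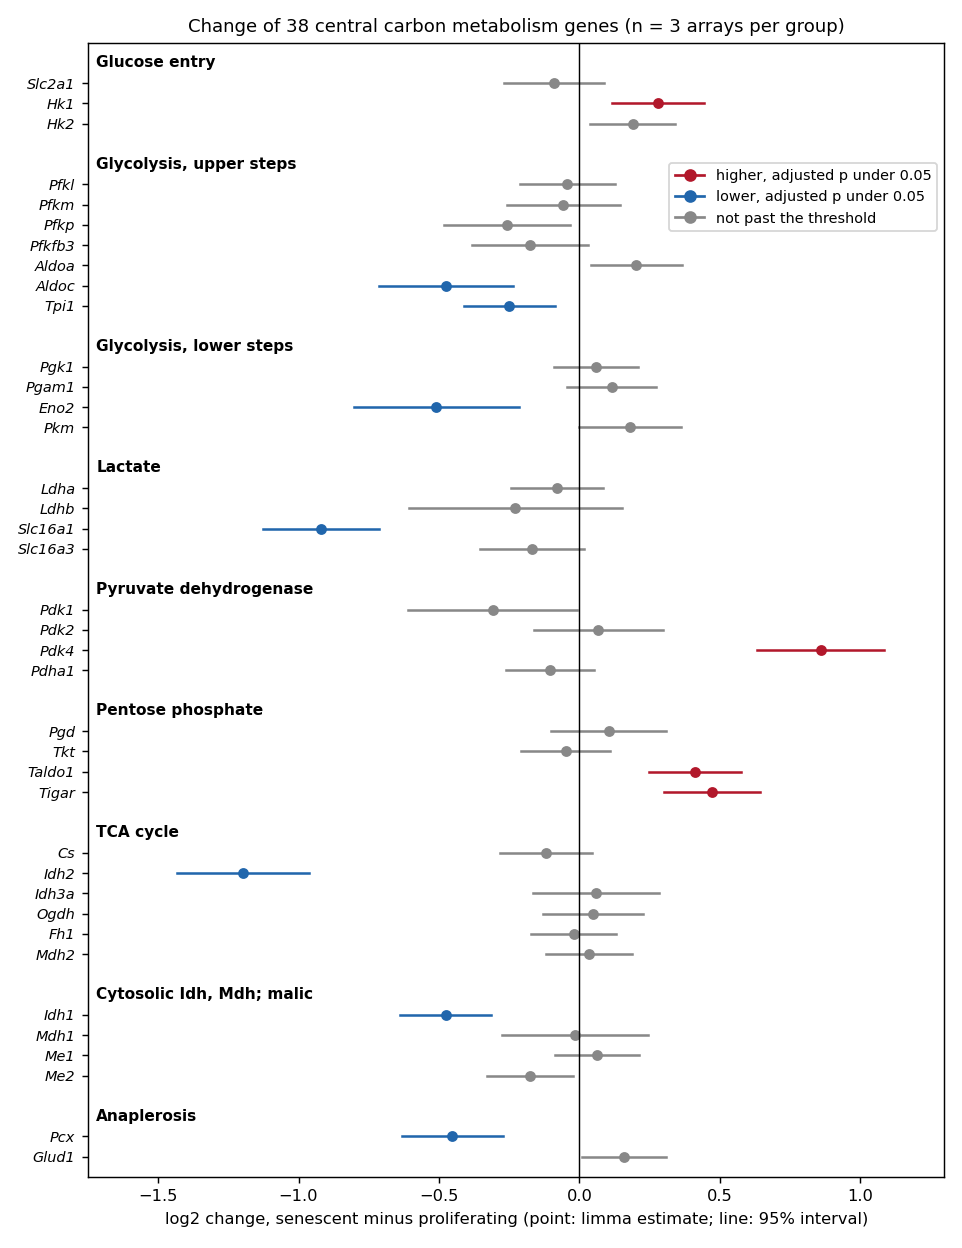
Change of each of the 38 genes on the log2 scale, senescent minus proliferating, grouped by pathway, where points are limma estimates, lines are 95% intervals and colour marks calls at an adjusted p under 0.05 (n = 3 arrays per group). Genes that were not called lie between -0.31 and 0.20, while Idh2 (-1.20), Slc16a1 (-0.92) and Pdk4 (0.86) stand farthest out.

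Promoters of the 3 genes with the largest changes and of Tigar are shown beside those of Ldha and Pgk1, glycolytic genes that were not called, as the 250 bases before the RefSeq start (GRCm38.p6, gene strand, 5′ to 3′). Capitals mark ACGTG and GCGTG on either strand, the core letters that hypoxia-inducible factors are known to bind. An E-box, CACGTG, which MYC proteins bind, holds ACGTG on both strands and counts as 2 matches. Of the 2 promoters listed for Ldha, the one with more ACGTG matches is shown.
Idh2 (chr7:80115351-80115600, - strand): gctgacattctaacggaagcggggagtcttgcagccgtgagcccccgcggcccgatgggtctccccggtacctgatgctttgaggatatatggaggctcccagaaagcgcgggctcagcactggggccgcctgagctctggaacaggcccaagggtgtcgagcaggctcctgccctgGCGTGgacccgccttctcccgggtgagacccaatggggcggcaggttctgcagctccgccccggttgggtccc
Slc16a1 (chr3:104638414-104638663, + strand): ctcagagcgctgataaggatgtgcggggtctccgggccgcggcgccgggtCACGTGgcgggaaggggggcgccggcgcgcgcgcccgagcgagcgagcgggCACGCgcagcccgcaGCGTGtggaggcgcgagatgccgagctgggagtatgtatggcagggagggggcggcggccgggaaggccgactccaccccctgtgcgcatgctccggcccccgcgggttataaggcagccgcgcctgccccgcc
Pdk4 (chr6:5496279-5496528, - strand): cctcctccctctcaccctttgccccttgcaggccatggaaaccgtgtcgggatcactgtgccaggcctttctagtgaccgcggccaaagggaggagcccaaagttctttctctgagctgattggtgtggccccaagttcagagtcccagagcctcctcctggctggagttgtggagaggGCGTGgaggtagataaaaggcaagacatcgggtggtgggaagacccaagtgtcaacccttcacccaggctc
Tigar (chr6:127109553-127109802, - strand): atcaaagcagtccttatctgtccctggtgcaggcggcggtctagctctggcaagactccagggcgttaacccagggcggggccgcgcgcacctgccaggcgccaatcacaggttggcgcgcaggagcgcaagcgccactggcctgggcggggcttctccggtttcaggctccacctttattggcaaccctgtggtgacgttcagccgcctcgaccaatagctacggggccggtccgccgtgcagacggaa
Ldha (chr7:46845554-46845803, + strand): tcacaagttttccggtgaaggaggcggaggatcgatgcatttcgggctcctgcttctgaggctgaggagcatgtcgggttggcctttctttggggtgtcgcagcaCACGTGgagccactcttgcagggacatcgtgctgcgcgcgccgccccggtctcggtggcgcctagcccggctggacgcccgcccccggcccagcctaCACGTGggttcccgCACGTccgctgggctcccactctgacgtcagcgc
Pgk1 (chrX:106186850-106187099, + strand): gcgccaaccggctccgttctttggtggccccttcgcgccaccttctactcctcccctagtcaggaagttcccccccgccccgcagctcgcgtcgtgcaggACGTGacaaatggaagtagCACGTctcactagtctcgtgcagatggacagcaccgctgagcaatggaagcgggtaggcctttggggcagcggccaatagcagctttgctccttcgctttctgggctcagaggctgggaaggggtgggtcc
The windows of Ldha, Slc16a1 and Pgk1 held 5, 2 and 2 matches to ACGTG, and Ldha and Slc16a1 held 2 and 1 E-boxes. Those of Idh2, Pdk4 and Tigar held no ACGTG, and Idh2 and Pdk4 each held 1 GCGTG. A promoter was listed for 36 of the 38 genes, all but Idh3a and Me2. ACGTG lay in at least 1 listed promoter of 16 of the 36 genes (44.4%), against 18.5% of 27025 genes, and GCGTG in 23 (63.9%), against 30.9%. CACGTG lay in 7 of the 36 (19.4%), against 6.86%. A gene with more listed promoters has more places for a match. Counted singly, 42.1% of the 57 promoters of these genes held ACGTG, against 16.6% of all 32851. For GCGTG it was 49.1% against 28.2%, and for CACGTG 15.8% against 6.02%. The base composition of the windows moved with these shares. The highest GC content of a gene's windows had a median of 62.8% for the 36 genes and 52.8% for all, and its part in the counts was not tested. By call, ACGTG was found for 0 of 4 genes that were higher, 2 of 7 that were lower and 14 of 25 that were not called. GCGTG was found for 3 of the 4, 4 of the 7 and 16 of the 25.

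Glucose enters the cell and is trapped through Slc2a1, the glucose transporter GLUT1, and the hexokinases Hk1 and Hk2. The values of Slc2a1 were 11.15, 11.31 and 11.35 on the proliferating arrays and 11.13, 11.20 and 11.21 on the senescent arrays (log2 expression). The groups overlapped, and the change of -0.09 ± 0.08 (SE) did not pass (adjusted p = 0.496). Hk1 (Entrez gene 15275), the housekeeping hexokinase, read 11.01, 11.01 and 11.05 in proliferating and 11.37, 11.21 and 11.32 in senescent cells. All senescent arrays were above all proliferating ones, and Hk1 rose 1.22-fold (0.28 ± 0.07, adjusted p = 0.026). That call stood near the threshold. It was lost in 5 of 6 fits that left out 1 array and kept without senescent replicate 2, with changes in those 5 of 0.24 to 0.29 and adjusted p of 0.0557 to 0.0944. The other probe set of Hk1 gave 0.30. Hk2, the inducible hexokinase, also had groups that did not overlap, 9.66, 9.63 and 9.67 against 9.90, 9.82 and 9.80, with a change of 0.19 ± 0.07 that missed the threshold (adjusted p = 0.0856).

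There were 11 genes measured for the steps from phosphofructokinase to pyruvate kinase. Of these, 3 were called lower (10.5% of all genes were), 0 were called higher (9.49% of all genes) and 8 were not called. Each of the 3, Tpi1, Aldoc and Eno2, lost its call in some fits that left out 1 array. Aldoc lay below background on all 6 arrays and Eno2 on all senescent ones. The changes of the 8 that were not called lay between -0.26 and 0.20, and their 95% intervals between -0.48 and 0.36. Phosphofructokinase, which commits sugar to glycolysis, is built from Pfkl, Pfkm and Pfkp, whose changes were -0.04 ± 0.07, -0.06 ± 0.09 and -0.26 ± 0.10 (SE). Pfkp read 9.44, 9.79 and 9.72 in proliferating and 9.41, 9.42 and 9.36 in senescent cells. Its groups did not overlap, since proliferating replicate 1 lay just above the highest senescent array. Without that array Pfkp passed (-0.36, adjusted p = 0.0141). Pfkfb3, which makes the activator of phosphofructokinase, had a change of -0.18 ± 0.09 (adjusted p = 0.23).

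Aldolase and triosephosphate isomerase, the next enzymes, split the sugar and interconvert the products. Tpi1 (Entrez gene 21991), the isomerase, read 12.85, 12.98 and 12.96 in proliferating and 12.69, 12.63 and 12.72 in senescent cells. The groups were apart, and Tpi1 was 1.19-fold lower (-0.25 ± 0.07, SE, adjusted p = 0.0398). Its other probe sets gave -0.27 and -0.26. The call was lost in 5 of 6 fits that left out 1 array and kept without proliferating replicate 1, with changes of -0.29 to -0.23 over the 6 and adjusted p up to 0.134. Aldoa, the main aldolase, read 12.73, 12.79 and 12.77 against 12.97, 12.89 and 13.04, also without overlap. Its change of 0.20 ± 0.07 missed the threshold (adjusted p = 0.083), and the 5 probe sets gave 0.20 to 0.33. Aldoc, the brain-type aldolase, was called lower, but lay below background on all 6 arrays (5.26, 5.05 and 5.13 against 4.52, 4.64 and 4.86), so no fold is given. The call of Aldoc was lost without senescent replicate 1 or 2 (-0.40 and -0.46, adjusted p of 0.0516 and 0.0554), and its other probe set gave 0.08.

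In the lower steps Pgk1 and Pgam1, phosphoglycerate kinase and mutase, had changes of 0.06 ± 0.07 and 0.11 ± 0.07 (SE). Pgk1 read 13.91, 13.95 and 13.98 in proliferating and 14.04, 14.02 and 13.97 in senescent cells, and these overlapped. Pkm, pyruvate kinase of proliferating and muscle tissue, read 12.05, 12.10 and 12.13 against 12.31, 12.14 and 12.36, all senescent arrays higher, with a change of 0.18 ± 0.08 (adjusted p = 0.159). Splice forms of Pkm were not told apart. Gapdh, which is not one of the 42 and was read from the array's control probe sets, gave 0.07 ± 0.07 (adjusted p = 0.583). Eno2, the neuronal enolase, was the only called gene of these steps. It read 6.24, 5.77 and 5.81 on the proliferating arrays and 5.33, 5.51 and 5.47 on the senescent arrays, all of the latter below background. Its level dropped at least 1.29-fold (adjusted p = 0.0257). The call was lost without senescent replicate 1, 2 or 3 (-0.45, -0.55 and -0.53, adjusted p of 0.0912, 0.0618 and 0.0678).

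Lactate is made and remade into pyruvate by Ldha and Ldhb and crosses the membrane through carriers of the Slc16a family. Ldha read 13.04, 13.16 and 13.09 in proliferating and 13.06, 13.04 and 12.95 in senescent cells, which overlapped, with a change of -0.08 ± 0.07 and a 95% interval of -0.24 to 0.09. Ldhb was more variable, and proliferating replicate 1 read 10.13 and the other 5 arrays 9.38 to 9.64. Its change was -0.23 ± 0.16 (adjusted p = 0.408). Slc16a1 (Entrez gene 20501), which moves lactate and pyruvate with protons in either direction, read 12.74, 12.62 and 12.63 on the proliferating arrays. On the senescent arrays it read 11.72, 11.90 and 11.61, every value at least 0.72 below the lowest proliferating array. The mean went from 12.66 ± 0.07 to 11.74 ± 0.14 (SD, n = 3), a change of -0.92 ± 0.09 (SE, adjusted p = 3.47e-04). A second, dim probe set with a mean of 5.81 gave -0.11, and both sets averaged gave -0.52 (adjusted p = 0.00223). Slc16a3, the lactate exporter of glycolytic cells, was below background on all 6 arrays.

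The kinases Pdk1, Pdk2 and Pdk4 phosphorylate pyruvate dehydrogenase and so hold pyruvate back from the TCA cycle. Pdk4 (Entrez gene 27273), the form known to be induced by fasting, read 9.05, 9.36 and 9.32 in proliferating and 10.01, 10.20 and 10.10 in senescent cells. The groups were well apart, and the mean rose from 9.24 ± 0.17 to 10.10 ± 0.09 (SD, n = 3), by 0.86 ± 0.10 (SE, adjusted p = 8.05e-04). Pdk1, the form known to be induced by hypoxia, read 9.76, 9.25 and 9.31 against 9.09, 9.21 and 9.09, with every senescent array lower. Its change of -0.31 ± 0.13 did not pass (adjusted p = 0.15), while the next brightest of its 4 probe sets gave -0.35 (limma over all probe sets, adjusted p = 0.042). Pdk2 was below background on every array. Pdha1, the catalytic subunit of the dehydrogenase itself, had a change of -0.10 ± 0.07 (adjusted p = 0.35).

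Of the 4 genes listed for the pentose phosphate pathway and measured, 2 were called higher, Taldo1 and Tigar (9.49% of all genes were). The other 2, Pgd and Tkt, were not called. Tigar is a phosphatase that lowers the activator of phosphofructokinase, so Taldo1 was the only called enzyme of the pathway itself among the 4. Pgd, phosphogluconate dehydrogenase of the NADPH-making arm, read 12.46, 12.58 and 12.66 against 12.60, 12.60 and 12.81, with a change of 0.10 ± 0.09 (SE). Transketolase and transaldolase run the arm that links pentoses back to glycolysis. Tkt had a change of -0.05 ± 0.07, and the dimmest of its 3 probe sets gave 0.50 (limma over all probe sets, adjusted p = 0.0247). Taldo1 (Entrez gene 21351) read 11.76, 11.63 and 11.67 in proliferating and 12.14, 12.04 and 12.12 in senescent cells. The groups did not overlap, and its rise was 0.41 ± 0.07 (adjusted p = 0.005). Tigar (Entrez gene 319801), which is induced by p53 and is known to turn glucose toward the pentose phosphate pathway, read 7.57, 7.68 and 7.75 against 8.18, 8.15 and 8.09. Every senescent array was higher, and the mean rose from 7.67 ± 0.09 to 8.14 ± 0.05 (SD, n = 3), by 0.47 ± 0.07 (SE, adjusted p = 0.00328). Its other 2 probe sets gave 0.41 and 0.18, and the latter did not pass.

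**Figure D2:**
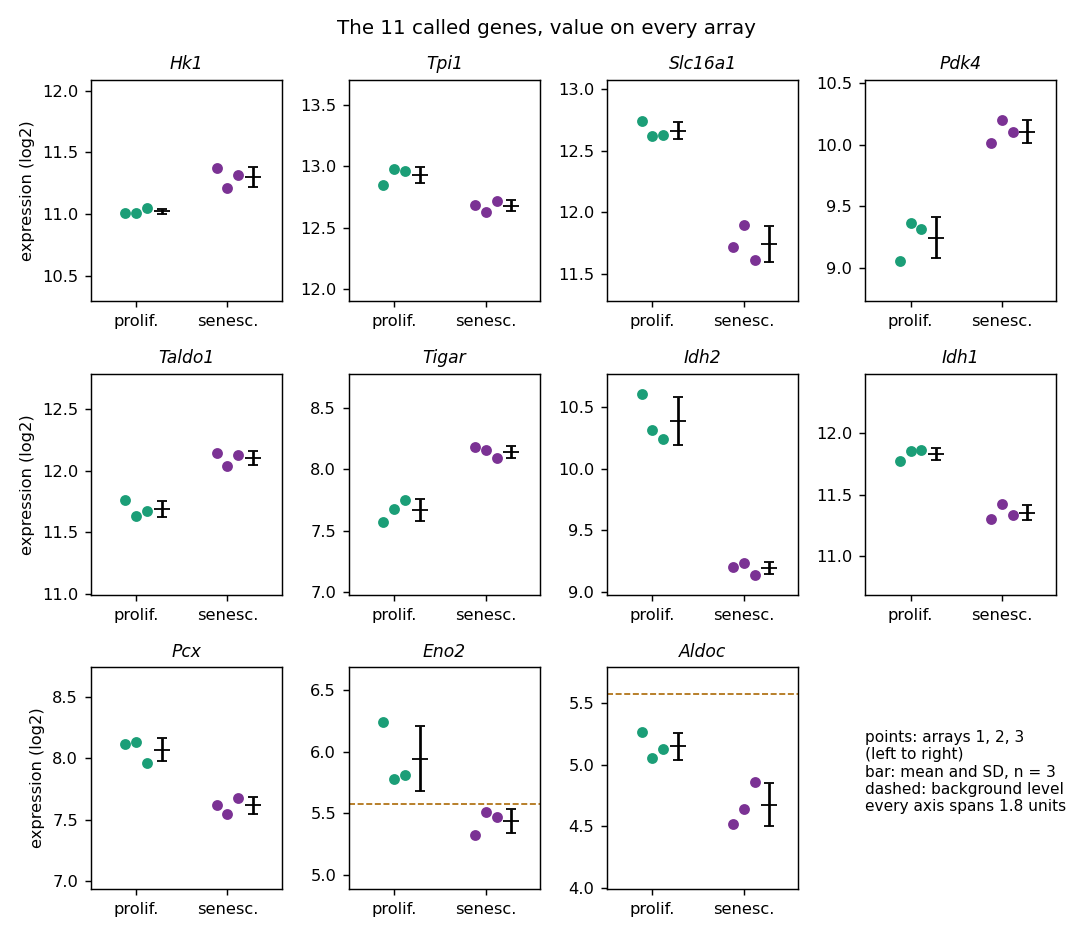
Log2 expression of the 11 called genes on each array, proliferating and senescent, with the mean and SD (n = 3) and, where it falls in range, the background level as a dashed line. The groups do not overlap for any of the 11, against 37.0% of all genes without overlap. The 11 were chosen by calls on these same arrays, so this adds no support to the calls. The gap is widest for Idh2, from 10.24 on the lowest proliferating to 9.24 on the highest senescent array.

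Of 6 enzymes of the TCA cycle, Idh2 fell (16.7% called, against 20.0% of all genes). The other 5 were not called, with changes between -0.12 and 0.059 and 95% intervals between -0.28 and 0.28. Idh2 (Entrez gene 269951) turns isocitrate into ketoglutarate in the mitochondrion and yields NADPH there. It read 10.61, 10.31 and 10.24 on the proliferating arrays and 9.20, 9.24 and 9.14 on the senescent arrays. The mean dropped from 10.39 ± 0.20 to 9.19 ± 0.05 (SD, n = 3, adjusted p = 1.95e-04). Proliferating replicate 1 was the highest array, and without it the change was -1.09 (adjusted p = 1.95e-04). A second probe set of Idh2, with a mean of 5.76 near background, gave -0.09 (limma over all probe sets, adjusted p = 0.788), and the 2 averaged gave -0.64 (adjusted p = 9.56e-04). The NAD-dependent enzyme for the same step, read through its subunit gene Idh3a, had a change of 0.06 ± 0.10 (SE), with 11.61, 11.77 and 11.81 against 11.83, 11.92 and 11.62. Its brightest probe set was thus not called, but 2 of its 4 probe sets were higher, by 0.37 and 0.43 (limma over all probe sets, adjusted p of 0.0394 and 0.02).

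The remaining TCA genes of the studied list, Cs, Ogdh, Fh1 and Mdh2, stayed within narrow limits in the probe sets read. Cs, citrate synthase, read 12.79, 12.93 and 12.87 against 12.80, 12.74 and 12.70, a change of -0.12 ± 0.07 (SE). Ogdh, of the ketoglutarate dehydrogenase complex, gave 0.05 ± 0.08. For Fh1, fumarase, the change was -0.02 ± 0.07, and its 95% interval ran from -0.17 to 0.13. Mdh2, mitochondrial malate dehydrogenase, gave 0.034 ± 0.066, with an interval of -0.12 to 0.19.

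Outside the cycle, Idh1, Mdh1, Me1 and Me2 handle isocitrate and malate in the cytosol or, for Me2, the mitochondrion. Idh1 (Entrez gene 15926), a cytosolic and peroxisomal source of NADPH, read 11.77, 11.85 and 11.86 in proliferating and 11.30, 11.43 and 11.33 in senescent cells. The groups were apart, and Idh1 fell by 0.48 ± 0.07 (SE, adjusted p = 0.00245). Its second probe set gave -0.49 (limma over all probe sets, adjusted p = 0.0124). Both carry the suffix _s_at, given to sets that may detect more than a single transcript. Mdh1, cytosolic malate dehydrogenase, read 12.68, 12.67 and 12.59 against 12.39, 12.66 and 12.85, with a change of -0.014 ± 0.11. Of its 5 probe sets, the dimmer ones gave -0.10, -0.23, 0.13 and -0.54. For -0.10 and -0.23 every senescent array was below every proliferating one. The last was called lower (limma over all probe sets, adjusted p = 0.0463), with a mean of 5.50, below background. Me1, the cytosolic malic enzyme that makes NADPH, gave 0.063 ± 0.065 (adjusted p = 0.579). Me2, the mitochondrial malic enzyme, gave -0.18 ± 0.07 in the probe set read (adjusted p = 0.11). Its 3 dimmer sets gave 0.14, 0.19 and 0.56, so no direction is given for Me2.

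Anaplerosis, the refilling of the TCA cycle, was read through Pcx, which makes oxaloacetate from pyruvate, and Glud1, glutamate dehydrogenase. Pcx (Entrez gene 18563) read 8.12, 8.13 and 7.96 against 7.62, 7.55 and 7.68 in a control probe set at the 3′ end of the transcript. The groups did not overlap, and Pcx fell by 0.45 ± 0.08 (SE, adjusted p = 0.00491). The gene's ordinary probe set fell by 0.56 (limma over all probe sets, adjusted p = 0.00634). The control sets for the 5′ end and 2 middle stretches gave 0.0094, -0.0051 and -0.12. The 3′ over 5′ signal of Pcx therefore fell by 0.46 ± 0.13 (log2, SE), with no overlap of the groups, while that of Gapdh and Actb, which reads how intact the RNA was, differed by 0.13 ± 0.06 and 0.08 ± 0.05. When the 5 probe sets were averaged, the change of Pcx was -0.23 and was not called (adjusted p = 0.0549). Glud1 read 12.63, 12.69 and 12.67 against 12.85, 12.83 and 12.79, all senescent arrays higher, with a change of 0.16 ± 0.06 that did not pass (adjusted p = 0.134).

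Across the 27 genes with more than 1 probe set, all sets changed in the same direction for 15, and no gene had sets called in both directions. Where a bright and a dim set disagreed, as for Idh2 and Slc16a1, the larger change was in the brighter set. For Me2 and Tkt the larger change was in a dimmer set.

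**Figure D3:**
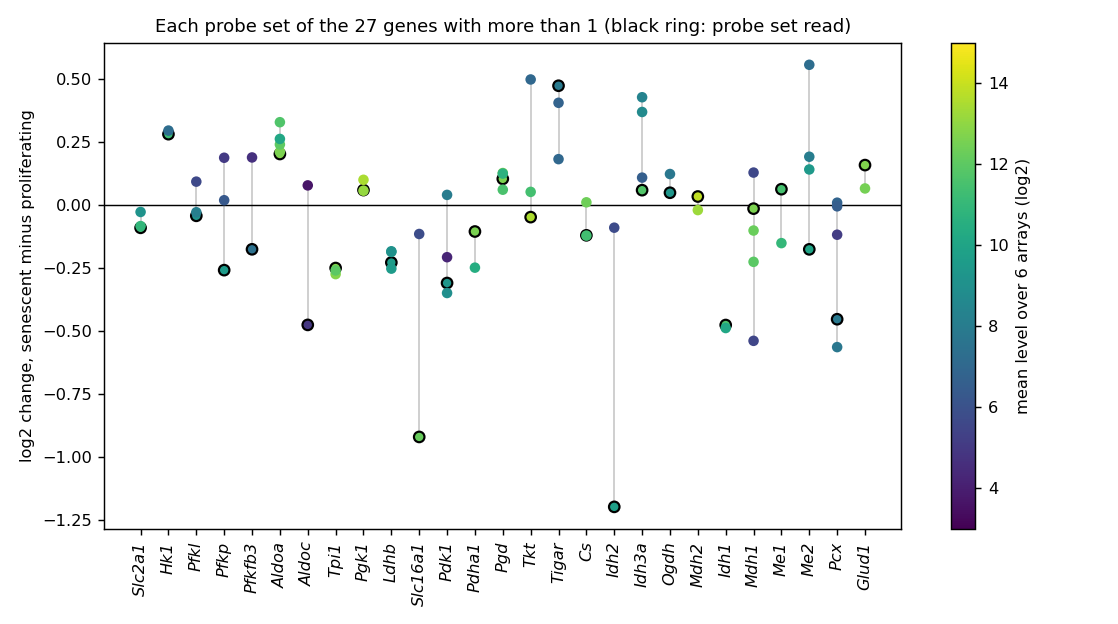
Log2 change, senescent minus proliferating, of every probe set of the 27 genes with more than 1, coloured by its mean log2 level over the 6 arrays, with a black ring on the set read. The sets of Tpi1, Aldoa, Idh1, Hk1 and Ldhb lie close together, whereas those of Idh2 (-1.20 and -0.09), Slc16a1, Me2 and Pcx spread widely.

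Enzymes that share a reaction were compared by their log2 ratio on each array, which does not move with the scaling of an array and shows only unequal change. In 11 pairs tested, the exact two-sided permutation p could not go below 0.1, and that value became 0.157 after adjustment over the pairs, so none passed. Leaving out 3 pairs with a member below background, the groups did not overlap for 4 of 8. The ratio of Idh1 over Idh2 was 1.16, 1.54 and 1.62 on the proliferating arrays and 2.10, 2.19 and 2.19 on the senescent arrays, higher by 0.72 ± 0.14 (SE) in senescent cells. Thus the mitochondrial gene fell by more than the cytosolic one in the probe sets read. With all probe sets of each gene averaged, the difference was 0.16 ± 0.10 and the groups overlapped. Pdk4 over Pdk1 went from -0.71, 0.12 and 0.00 to 0.92, 0.99 and 1.02, a difference of 1.17 ± 0.26, or 1.06 ± 0.17 with averaged sets.

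Me1 over Me2 went from 1.37, 1.35 and 1.34 to 1.56, 1.57 and 1.65, a difference of 0.24 ± 0.03 (SE), but turned to -0.22 ± 0.07 with averaged probe sets. Hk2 over Hk1 read -1.35, -1.38 and -1.38 against -1.47, -1.39 and -1.51, and was lower in senescent cells by a small amount without overlap (-0.09 ± 0.037). With averaged probe sets the groups of this ratio overlapped (-0.099 ± 0.065). Ldhb over Ldha read -2.91, -3.51 and -3.67 against -3.53, -3.66 and -3.35, which overlapped (-0.15 ± 0.25, exact permutation p = 0.7). The phosphofructokinase ratios, Pfkp over Pfkl and Pfkp over Pfkm, differed by -0.22 ± 0.13 and -0.20 ± 0.19 with overlap, and Mdh1 over Mdh2 by -0.048 ± 0.11.

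**Figure D4:**
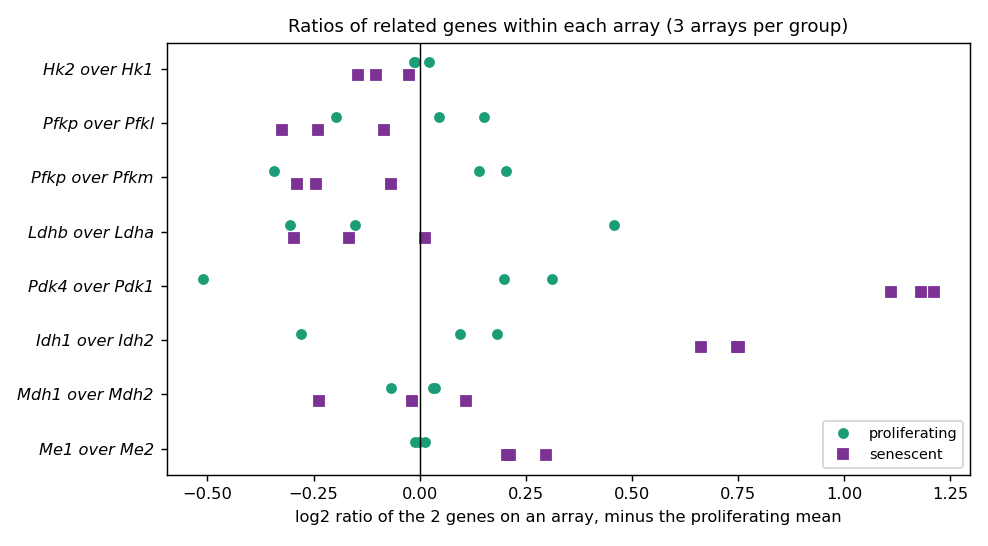
Log2 ratio of 2 genes for the same reaction on each array, shown as the difference from the mean of the 3 proliferating arrays, for the 8 pairs with both genes above background. Senescent arrays lie to the right of all proliferating arrays for Pdk4 over Pdk1, Idh1 over Idh2 and Me1 over Me2, and just to the left for Hk2 over Hk1, while the other 4 pairs overlap.

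A further 132 genes around these pathways were read in the same way, and 15 were higher and 23 lower, with a median change of -0.054. That is 28.8% called, 11.4% higher and 17.4% lower, against 20.0% of all genes, 9.49% higher and 10.5% lower. Of the 132, 118 had a mean above background, and 32.2% of all genes above it, tested alone, were called. The lists that follow are small, and the share called in each is to be read beside these. Of 23 other glycolysis genes, 2 rose and 1 fell (13.0% called, median -0.0030). Bpgm, which diverts a glycolytic intermediate to the regulator of haemoglobin, rose by 0.46 ± 0.08 (log2, SE), and Adpgk, a glucokinase that uses ADP, by 0.40 ± 0.08. Slc16a4, another carrier of the lactate carrier family, fell by 0.41. Of 8 other genes around pyruvate dehydrogenase, 0 rose and 3 fell (37.5% called, median -0.14). These were Mpc1, a subunit of the mitochondrial pyruvate carrier (-0.47 ± 0.12), the phosphatase gene Pdp1, which switches the dehydrogenase on (-0.48 ± 0.14), and the kinase gene Pdk3 (-0.33 ± 0.07).

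Each of those 3 calls depended on single arrays. Mpc1 lost its call without proliferating replicate 1 or 3 (-0.44 and -0.45). For Pdk3 it was lost without senescent replicate 1 or 2, or without proliferating replicate 2 (-0.33, -0.29 and -0.32). Pdp1 kept it only without proliferating replicate 3, and its change over the 6 such fits was -0.57 to -0.35.

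In the pentose phosphate pathway, 2 of 10 further genes rose and 0 fell (20.0% called, as of all genes, median 0.13). Tktl1, a transketolase-like gene, read 4.52, 4.68 and 4.68 in proliferating and 5.77, 5.91 and 5.61 in senescent cells. All proliferating arrays were below background, so, judged by the means alone, Tktl1 was at least 1.14-fold higher (adjusted p = 1.70e-04). Pgls, the lactonase of the NADPH-making arm, rose by 0.39 ± 0.08, a call lost without senescent replicate 1 (0.37, adjusted p = 0.054). Of 17 further TCA genes, 1 rose and 2 fell (17.6% called, median -0.083). Dlst of the ketoglutarate dehydrogenase complex rose by 0.35 ± 0.08, lost without senescent replicate 1 (0.33). The carrier gene Slc25a11 fell by 0.25 and Sdha, of succinate dehydrogenase, by 0.25, and both calls were lost when any 1 of the 6 arrays was left out (-0.28 to -0.24 and -0.28 to -0.21).

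The next lists hold genes that refill or drain the cycle and genes of the serine branch, and few of either were called. Of 12 further anaplerosis genes, 0 rose and 3 fell (median -0.17). Pck2, the mitochondrial enzyme that makes phosphoenolpyruvate, fell by 0.82 ± 0.09 (SE), from 10.50, 10.78 and 10.72 to 9.94, 9.76 and 9.83. Pccb, of propionyl-CoA carboxylase, fell by 0.56 ± 0.09. Gpt2, the mitochondrial alanine transaminase, fell by 0.38, a call lost without senescent replicate 2 or 3, or without proliferating replicate 3 (-0.31, -0.38 and -0.33). In the serine branch that leaves lower glycolysis, 2 of 7 genes fell and 0 rose (28.6% called, against 20.0% of all genes, median -0.13). Psat1 fell by 0.36 ± 0.07 and Shmt1 by 0.33. Changes were above 0 for 2 of the 7, Phgdh and Mthfd1, and below 0 for 5. The call of Shmt1 was lost without proliferating replicate 3 (-0.31).

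Among 15 genes of the glycogen and hexosamine branches, 1 rose and 4 fell (33.3% called, against 20.0% of all genes, median -0.052). Gfpt2, which commits sugar to the hexosamine pathway, fell by 0.89 ± 0.07 (SE), from 9.04, 9.02 and 8.91 to 8.14, 8.08 and 8.09, and its relative Gfpt1 by 0.36 ± 0.07. Ugp2, which makes UDP-glucose, fell by 0.65 ± 0.09, and Gnpda1, which returns hexosamine to glycolysis, by 0.45 ± 0.08. Gbe1, the glycogen branching enzyme, went the other way and rose by 0.69 ± 0.10.

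Of 25 regulators of these pathways, 5 rose and 6 fell (44.0% called, against 20.0% of all genes, median -0.080). The largest changes were in Epas1, the hypoxia-inducible factor known in endothelium, which fell by 1.29 ± 0.13 (SE), Mycn, a MYC family factor, by 0.90 ± 0.12, and Esrra, a receptor that drives mitochondrial genes, which rose by 0.64 ± 0.08. Hif1a fell by 0.29 ± 0.08, but its call was kept only without senescent replicate 2 (-0.36 to -0.23 over the fits without 1 array). Of 16 hypoxia targets outside glycolysis, 4 rose and 2 fell (37.5% called, median -0.044). Adm, adrenomedullin, rose by 1.14 ± 0.09, from 8.04, 8.12 and 8.32 to 9.29, 9.28 and 9.34, Hilpda, a lipid droplet protein, by 0.71 ± 0.09, and Vegfa, an endothelial growth factor, by 0.58 ± 0.13. The calls of Vegfa and Ddit4, a stress-induced inhibitor of mTOR signalling (0.48 ± 0.10), were lost without senescent replicate 2 and 1 respectively (0.51 and 0.44). Ndrg1 fell by 0.34 ± 0.06, and so did P4ha1, a collagen prolyl hydroxylase subunit, by 0.24 ± 0.07, a call kept only without proliferating replicate 1 (-0.28 to -0.20 over the fits without 1 array). Changes were below 0 for 10 of the 16, among them Kdm3a (-0.35) and Bnip3 (-0.31), which were not called but had groups without overlap.

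Arrays correlated at 0.995 to 0.997 within groups and 0.989 to 0.992 between groups (Pearson, over all 45101 probe sets, which are not independent replicates). Cdkn1a, the gene of the p21 inhibitor of the cell cycle, rose by 1.74 in the senescent group, and the division genes Mki67, Top2a and Ccnb2 fell by 0.64, 0.67 and 1.10 (log2). Of 11 measured stellate cell markers, 8 lay above background, Col1a1, Des, Hand2 and Pdgfrb among them, and Lrat, Reln and Lhx2 did not. Col1a1, Col3a1, Hand2 and Pdgfrb fell, and the summed linear level of the list was 77576 to 79013 in proliferating and 67731 to 68761 in senescent cells. Of 11 hepatocyte markers, 4 lay above background and Alb, Cyp2e1, Cps1, G6pc and Pck1 did not, with a sum of 458 to 547 in proliferating and 519 to 594 in senescent cells, and Apob rose. Macrophage markers Ptprc and Adgre1, endothelial Pecam1 and Tek, and lymphocyte Cd79a lay below background, 6 of 10, 2 of 9 and 1 of 5 of those lists being above it. The sums were 1160 to 1192 in proliferating and 1140 to 1217 in senescent cells for macrophages, 693 to 832 in proliferating and 833 to 917 in senescent cells for endothelium and 163 to 176 in proliferating and 174 to 192 in senescent cells for lymphocytes. Csf1r of the macrophage list rose by 0.35, a call lost without proliferating replicate 2 or senescent replicate 1 (0.32 and 0.33), and Cdh5 of the endothelial list rose from below background on the proliferating arrays. Of 5 biliary markers, 4 were above background, and the sum of the list was 2025 to 2108 in proliferating and 2536 to 2809 in senescent cells, as Krt19 rose and Krt7 fell. In such bulk samples, fewer cells of a type and less RNA per cell cannot be told apart, and the part of these markers in the changes above was not tested.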

How the data were processed

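Trizol-extracted RNA of 6 samples was labelled with biotin and hybridised to Affymetrix arrays (source: the labels' protocols). The authors summarised probes into log2 values, 1 for each probe set, by RMA, per the submitters' processing notes. Its version, the chip description and any batch were not given in the sources used here. RMA makes the arrays' distributions equal, and at any rank the arrays were within 0.123 of each other. Shifts that most genes share are removed by this, and differences of very dim or very bright probe sets come out too small.

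Of 45101 probe sets, 34958 had 1 gene, 932 several and 9211 none. Symbols were updated by Entrez number with a RefSeq table (GRCm38.p6), which held 34754 of them. No build is stated for the probes. Each gene was read from its brightest probe set, control sets with a gene name included. For 7 of the 38 members that set may detect several transcripts (suffix _s_at or _x_at). The background level, 5.57, was the 95th percentile over 44 probe sets of olfactory receptors. A gene with 1 group wholly under this level has a fold given as a bound, the mean of the other group over this level, without sampling error.

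The groups came from the titles. limma 3.58.1 (R 4.3.3, lmFit and eBayes, 4 residual and 4.21 prior degrees of freedom) compared them without covariates. On simulated data (18194 genes, senescent against proliferating, independent normal noise) it recovered 73.1% of 67 genes changed by 0.5, 100% of 67 changed by 1 and 100% of 66 changed by 2, with 15 false calls among 197. The noise took limma's own variance estimates, and only those genes were changed, a far smaller share than the 20.0% called in the data. Recovery in the data may therefore differ. Ratios were compared with exact permutation tests. Alternatives covered probe set choice, low-level filters, variance trend, scaling, replicate block and each array left out. The spike-in scaling used 24 probe sets. Members, lists, pairs and alternatives were chosen with earlier results of these data known. All 38 members are named, and of each further list up to 3 called genes by size of change. Gapdh and the division and p21 genes were always named. Other genes named from these lists were chosen after their values were seen. Marker genes are named by level or call. Plots came from matplotlib 3.10.9 (Python 3.11.15).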

Additional observations from a re-analysis of the deposited data

How the results depend on the processing

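Outside spike-in scaling, 29 to 36 of the 34 to 38 genes tested kept both their direction and their side of the threshold in each alternative tried. Scaling to the poly-A spike-ins called 0 members higher and 33 lower, with a median of -0.64, and called 15321 genes in all and 111 of the surrounding pathway genes. There the changes of Hk1, Hk2, Aldoa, Pgk1, Pgam1, Pkm, Pdk2, Pgd, Taldo1, Tigar, Idh3a, Ogdh, Mdh2, Me1, Glud1 turned negative, at -0.32, -0.41, -0.39, -0.54, -0.48, -0.42, -0.53, -0.49, -0.18, -0.12, -0.54, -0.55, -0.56, -0.53, -0.44 in that order. These follow the shift of -0.60 common to all genes. The median of the members, -0.05 as reported, was -0.0053 with all probe sets of a gene averaged, 0.022 with probe sets that carry no suffix for shared transcripts, and 0.024 with centring on genes of middle level. That centring called 7 members higher, and of 3636 genes called 63.2% were higher, against 47.4% of 3645. Testing only genes above the median level also called 7 members higher. Signs turned, besides, for genes not called or, in Aldoc, below background. With averaged probe sets these were Pfkl 0.0072, Pfkfb3 0.0066, Tkt 0.17, Me1 -0.044 and Me2 0.18, without the suffixes Pfkl 0.093, Aldoc 0.078, Tkt 0.052 and Cs 0.011, and with that centring Pfkl 0.026, Pfkm 0.011, Tkt 0.021, Fh1 0.049 and Mdh1 0.055. With 1 array left out, signs turned within Pfkl -0.079 to 0.013, Pfkm -0.094 to 0.0097, Pdk2 -0.018 to 0.17, Idh3a -0.0047 to 0.14, Ogdh -0.015 to 0.090, Fh1 -0.039 to 0.0072 and Mdh1 -0.12 to 0.11. Without the suffixes Idh2 gave -0.09, and Idh3a and Pdk1 passed (0.43 and -0.35). Hk2, Aldoa, Me2 and Glud1 passed in 1 or more of the filters, centring or trend settings. With 1 array left out in turn, members called higher ranged from 3 to 4, members called lower from 4 to 8, their median from -0.073 to -0.025, all calls from 2433 to 3337, surrounding genes called from 25 to 35, and pairs without overlap from 7 to 9. Replicate numbers are shared by the groups, but deviations of same-numbered arrays correlated at 0.094, -0.068 and -0.15, and 1 of 6 arrays correlated best with its own number. With 3 arrays per group, these correlations cannot tell whether arrays with the same number shared a culture or preparation. With the replicate number as a block, 3 members were called higher and 6 lower, and 2935 genes in all, without Hk1 and Tpi1 (adjusted p of 0.0614 and 0.0902). Adjusting over all probe sets also left these out (0.0501 and 0.0737). Precision is limited by 3 arrays per group, and genes near background can only be bounded.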
